A study of Mus musculus with 20 samples.

Results

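The genes described here handle cholesterol inside cells and take up modified lipoproteins. They are 10 of the 46078 genes counted, listed by symbol and matched to the Ensembl identifiers of the count tables: Npc1, Npc2, Lipa, Soat1, Nceh1, Cyp46a1, Plin2, Cd36, Msr1 and Scarb1. All 10 were found. The brain tissue came from aged (18 months) wild-type male C57BL/6J mice, and every animal had undergone DH stroke, in which the distal middle cerebral artery is occluded and the animal is then kept in low oxygen. The treatment was hydroxypropyl-β-cyclodextrin (HPBCD), a sugar ring that binds cholesterol, injected under the skin at 4 g/kg. Dosing lasted 6 weeks, with 3 injections in each, the first of them 1 week after the stroke, and controls were given phosphate-buffered saline (vehicle). Tissue was taken at 7 weeks after stroke from the border of the infarct, with the infarct cut away (peri-infarct), and from the equivalent place in the other hemisphere (contralateral). This gave 4 groups of 5 libraries of polyadenylated RNA: vehicle peri-infarct, vehicle contralateral, HPBCD peri-infarct and HPBCD contralateral. No group without stroke was analysed here, so the contralateral region of a stroke brain is the reference.

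Cells that take up lipoproteins or myelin debris deliver cholesteryl esters to the lysosome. There lysosomal acid lipase, encoded by Lipa, cleaves the esters, and Npc2 and Npc1 pass the free cholesterol out of the organelle. In the endoplasmic reticulum Soat1 (ACAT1) esterifies surplus cholesterol for storage in lipid droplets, which Plin2 coats, and Nceh1 hydrolyzes stored esters again. Neurons use Cyp46a1, the cholesterol 24-hydroxylase, to turn cholesterol into a hydroxysterol that can leave the brain. Cd36 and Scarb1 (SR-B1) are class B scavenger receptors and Msr1 (SR-A) is a class A scavenger receptor. Macrophages filled with cholesteryl esters, known as foam cells, use most of this machinery.

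Gene counts per library were 14445021 to 22171627, and 3 counts, taken as the floor, came to 0.135 to 0.208 CPM (read counts scaled to a common library size by TMM). Some libraries stood apart in the summed level of fixed cell type markers. Vehicle contralateral replicate 1 had 2060 CPM of 6 striatal markers, against 123 to 192 CPM in the other 4 of its group. HPBCD contralateral replicate 3 and HPBCD peri-infarct replicate 3 had 614 and 633 CPM of 5 choroid plexus markers (Ttr, Kl, Folr1, Otx2 and Kcnj13), against 1.13 to 6.25 and 18.5 to 185 CPM in the rest of their groups. Vehicle peri-infarct replicate 3 had the most microglial RNA of its group, 1715 CPM over 8 markers. HPBCD contralateral replicate 4 was the smallest library and had the highest shares of reads outside genes (9.50%) and of ambiguous reads (8.03%), against at most 5.86% and 4.16% in the other 19. Neuronal markers were present in every library (3483 to 12801 CPM over 8 markers), as the labelled tissue would have.

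Levels of the genes can be compared with each other only per length, as CPM per kilobase of annotated exon. On that scale Cyp46a1 was the highest of the 10 in all 4 groups, at 71.6 ± 9.48 (SD, n = 5) in vehicle contralateral tissue, followed there by Nceh1 at 30.3 ± 2.93, Npc2 at 10.7 ± 1.73 and Npc1 at 6.29 ± 0.843, with no overlap between neighbours in this order. Soat1 (2.78 ± 0.226), Lipa (2.27 ± 0.109), Scarb1 (2.12 ± 0.380) and Plin2 (1.37 ± 0.243) came next, and the ranges of Lipa and Scarb1 overlapped. Cd36 and Msr1 were lowest, at 0.161 ± 0.0547 and 0.0522 ± 0.0565, and overlapped each other. In the HPBCD peri-infarct group Npc2 (27.3 ± 7.26) stood above Nceh1 (22.6 ± 3.39) in the mean, with overlapping ranges, and overlapped the lower end of Cyp46a1 (44.6 ± 9.62). Plin2 (7.01 ± 2.04) and Lipa (7.13 ± 2.24) were there within reach of Soat1 (6.32 ± 1.5), and Cd36 (2.0 ± 1.43) of Scarb1 (2.01 ± 0.197).

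The 250 bases before the transcription start were at hand for 7 of the 10 genes in RefSeq (GRCm38.p6); Npc1, Msr1 and Scarb1 had no entry in that table. The pairs shown are Lipa and Soat1, whose RNA levels followed each other most closely of all pairs around the group means, and Nceh1 and Cyp46a1, the members that were lower in peri-infarct tissue of HPBCD mice. Capitals mark the letters CACGTG (E-box), GAGGAAGT (PU.1 type ETS motif) and GGGCGG (GC box) on either strand; none of these overlapped another.
Lipa, chr19:34527475-34527724, minus strand: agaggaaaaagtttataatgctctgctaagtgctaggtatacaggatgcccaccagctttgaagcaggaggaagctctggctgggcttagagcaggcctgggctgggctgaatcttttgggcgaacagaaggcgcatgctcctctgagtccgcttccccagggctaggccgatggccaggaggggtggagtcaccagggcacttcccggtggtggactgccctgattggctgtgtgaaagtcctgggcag
Soat1, chr1:156474329-156474578, minus strand: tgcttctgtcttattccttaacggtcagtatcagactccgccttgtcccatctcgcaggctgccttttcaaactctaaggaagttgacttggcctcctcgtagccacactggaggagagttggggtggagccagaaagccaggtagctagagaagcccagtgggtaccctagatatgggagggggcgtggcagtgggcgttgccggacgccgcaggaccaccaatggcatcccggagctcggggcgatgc
Nceh1, chr3:27182754-27183003, plus strand: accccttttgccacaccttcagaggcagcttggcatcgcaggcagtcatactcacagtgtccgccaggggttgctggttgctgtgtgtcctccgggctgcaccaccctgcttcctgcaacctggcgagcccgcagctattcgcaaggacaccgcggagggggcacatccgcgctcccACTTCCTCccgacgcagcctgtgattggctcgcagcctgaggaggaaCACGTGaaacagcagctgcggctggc
Cyp46a1, chr12:108334066-108334315, plus strand: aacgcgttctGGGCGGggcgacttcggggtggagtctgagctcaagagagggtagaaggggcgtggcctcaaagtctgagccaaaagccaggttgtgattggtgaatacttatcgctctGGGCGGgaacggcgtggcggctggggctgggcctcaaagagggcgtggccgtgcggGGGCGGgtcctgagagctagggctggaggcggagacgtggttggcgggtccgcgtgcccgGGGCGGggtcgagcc
The sequences of Lipa and Soat1 hold none of these letters in the bases shown. That of Nceh1 holds 1 CACGTG, at position -26 from the transcription start, and 1 GAGGAAGT, at position -73 on the opposite strand, and that of Cyp46a1 holds 4 GC boxes. Over windows that also include the first 50 transcribed bases, the GC box was present in 6 of the 7 genes (all but Nceh1) and in 35.7% of 32851 promoters of the mouse genome, CACGTG in 2 (Nceh1 and Plin2) and 7.15%, and GAGGAAGT in 1 and 3.20%. The sterol response element TCACNCCAC (1.24% of promoters) and the AP-1 motif TGAGTCA (5.20%) were found in 0 of the 7. The GC content of the 250 bases ranged from 43.2% in Cd36 to 67.6% in Cyp46a1. These letters are a description of the sequence and show no binding.

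**Figure D1:**
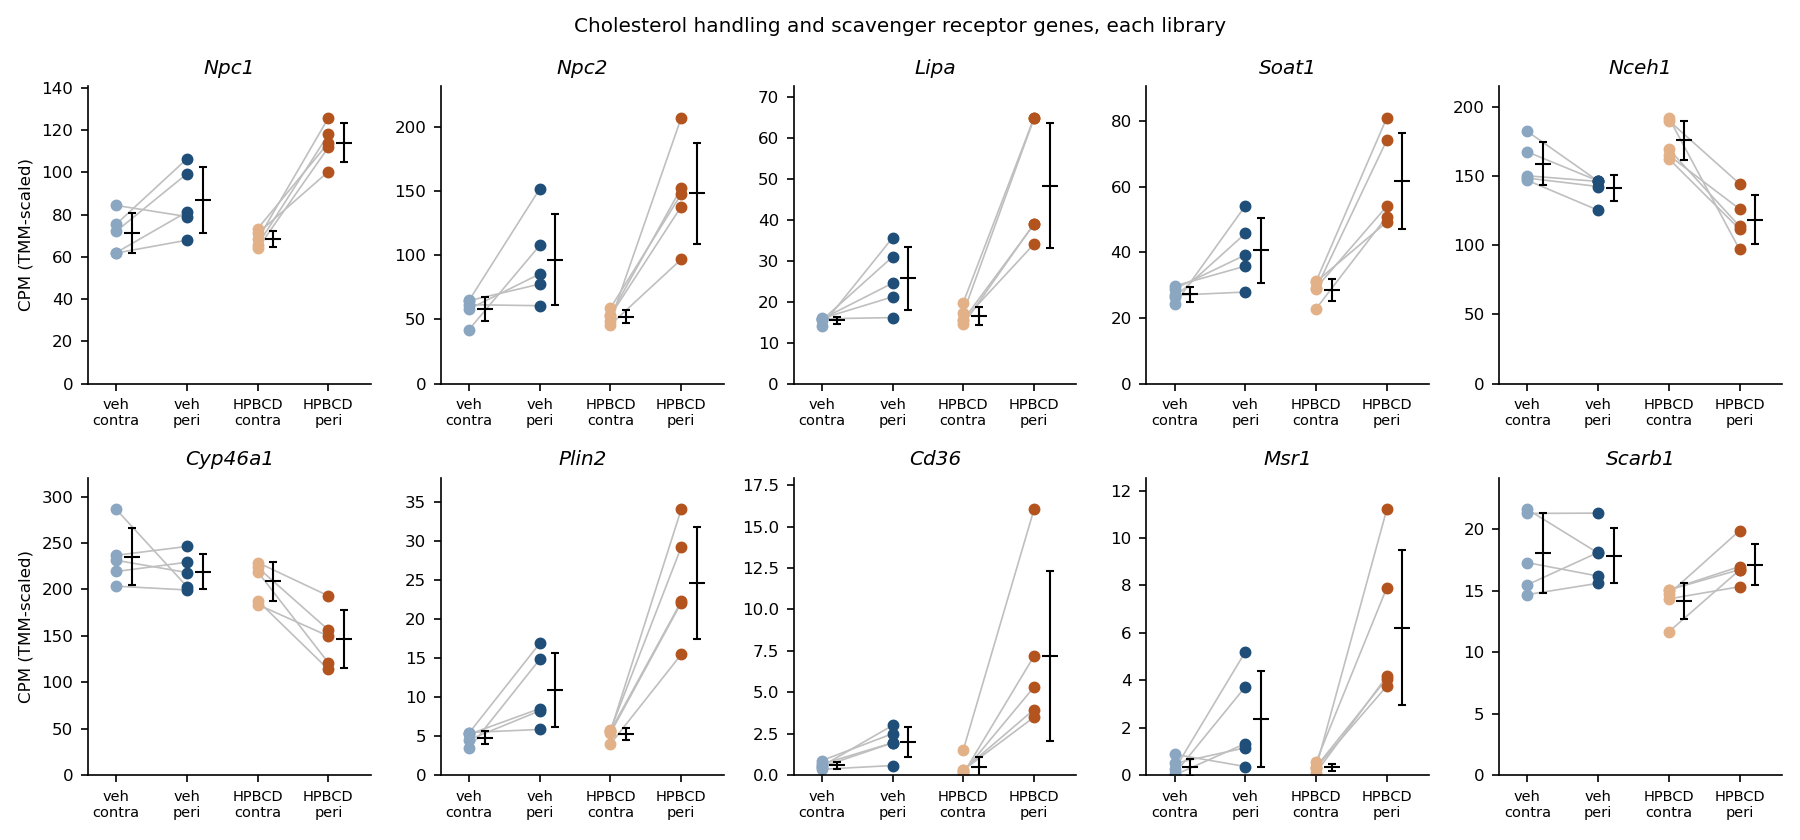
CPM of each gene (vertical axes, from 0, each panel with its own scale) in all 20 libraries; veh, vehicle; contra, contralateral; peri, peri-infarct. Points are libraries, grey lines join both regions of an animal, and black bars give the mean and SD of 5 libraries. Lipa, Plin2, Cd36 and Msr1 were low in both contralateral groups and highest in HPBCD peri-infarct libraries, whereas Nceh1 and Cyp46a1 were lowest there.

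The first comparison asks what differs beside the infarct in stroke brain given vehicle. In vehicle mice, 6 of the 10 genes rose in the peri-infarct region: Npc2, Lipa, Soat1, Plin2, Cd36 and Msr1, by 1.48-fold (Soat1) to 6.85-fold (Msr1), and 0 fell. Among all 15801 genes tested, 10.5% rose and 9.70% fell. The median log2 fold change of the 10 genes was 0.64, against 0.01 over all genes. Libraries of both regions did not overlap for Lipa and Plin2, which were higher in peri-infarct tissue, and for Nceh1, which was lower but did not pass the test. Such separation was seen for 6.72% of all genes in the higher and 6.70% in the lower direction. Lipa, Plin2 and Cd36 were called whichever library was left out, but only these 3 remained without vehicle peri-infarct replicate 4 or without vehicle contralateral replicate 3. With the animal as replicate block 4 were called (Lipa, Soat1, Plin2 and Cd36). The 5 libraries of a group carry different animal identifiers, and all p-values measure the spread between these samples.

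HPBCD mice gave the second comparison of regions. There 7 genes rose in the peri-infarct region, those of the vehicle mice and Npc1, and Nceh1 and Cyp46a1 fell. Which of the 2 regional results belongs to which treatment rests on labels whose assignment is in doubt, for the reason given with the next comparison. Nothing in these data could check the assignment. Of all 16047 genes tested 30.3% rose and 24.3% fell, so that calls were also more frequent over the whole transcriptome than in vehicle mice. The 10 genes had a median log2 fold change of 1.31, against 0.03 over all genes. The regions did not overlap for 8 genes in the higher direction (the 7 called genes and Scarb1) and for Nceh1 in the lower, compared with 24.3% and 18.3% of all genes. These 9 calls held in each fit that left out 1 library, and in 1 of those 10 fits, the one without HPBCD peri-infarct replicate 1, Scarb1 was called as well.

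Peri-infarct libraries labelled HPBCD were then compared with those labelled vehicle, which asks how the treatment bears on the tissue beside the infarct. Npc1, Lipa, Soat1, Plin2 and Cd36 were higher in the libraries labelled HPBCD, by 1.31-fold (Npc1) to 3.6-fold (Cd36), and Cyp46a1 was lower. Whether the vehicle and HPBCD labels of these libraries are the right way round is in doubt. The doubt comes from the paper's own account. With HPBCD it describes Lipa, Npc1, Npc2 and Cd36 as lower and Nceh1 as higher in peri-infarct tissue. In infarcts, which were not analysed here, it describes Lipa, Npc1 and Npc2 as higher. No RNA measured here shows which treatment an animal received, so the direction holds for the labels only and must not be read as an effect of HPBCD until the labels have been checked. These 5 higher and 1 lower calls stand beside 12.4% of 16224 genes called higher and 9.00% called lower. The median log2 fold change was 0.61, against 0.01 over all genes. Only Cd36 was higher in every HPBCD than in every vehicle library, and only Cyp46a1 was lower in every one, a separation shown by 7.47% and 5.97% of all genes. This count of 6 rested on single libraries. It was 0 without HPBCD peri-infarct replicate 3 (edgeR, with 7 genes at an unadjusted p under 0.05), 1 (Cyp46a1) without vehicle peri-infarct replicate 1, 2 (Cyp46a1 and Plin2) without vehicle peri-infarct replicate 2 and 3 (Cyp46a1, Plin2 and Cd36) without HPBCD peri-infarct replicate 4, while the count over all genes fell from 3471 to 823, 1437, 1303 and 1720. No member changed direction in these 4 fits. The vehicle peri-infarct libraries also enter the first comparison and the HPBCD ones the second, so that these comparisons are not independent of each other.

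In contralateral tissue the libraries labelled HPBCD and vehicle gave no call with edgeR, among the 8 genes tested (0 higher and 0 lower, as for 0% of all 15469 genes in either direction, 1224 of which had an unadjusted p under 0.05 while DESeq2 called 49). Cd36 and Msr1 were below the filter on low counts there. Scarb1 was the only gene at an unadjusted p under 0.05, and DESeq2 and limma voom called 0 of the genes too, with 1 and 3 at an unadjusted p under 0.05. No gene had groups that did not overlap, a separation found for 0.957% of all genes in the higher and 0.549% in the lower direction. Whether the regional difference differs between the treatments was tested by the region by treatment interaction over all 20 libraries, and edgeR called 0 of the 10 genes, beside 5.03% called higher and 4.38% called lower among 16758 genes. Of the 10, 8 had an unadjusted p under 0.05 and adjusted p-values ran from 0.0611 (Nceh1) to 0.344 (Msr1). Other analyses passed some of them: DESeq2 called 5 (Npc1, Lipa, Nceh1, Plin2 and Cd36), limma voom 5 (Npc2 in place of Cd36), and the fit with the animal as replicate block 4 (Npc1, Lipa, Nceh1 and Cd36). Total count scaling also passed 3 (Npc1, Lipa and Plin2), but it shifted the median of all genes from 0.01 to 0.10, and relative to that median the 3 interaction terms were 0.44, 0.81 and 1.04 under total count scaling and 0.44, 0.81 and 1.03 under TMM. Without 1 library the edgeR count ran from 0 to 6 (6 without vehicle peri-infarct replicate 3). A difference between the treatments in the regional change was thus called or not depending on the analysis.

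**Figure D2:**
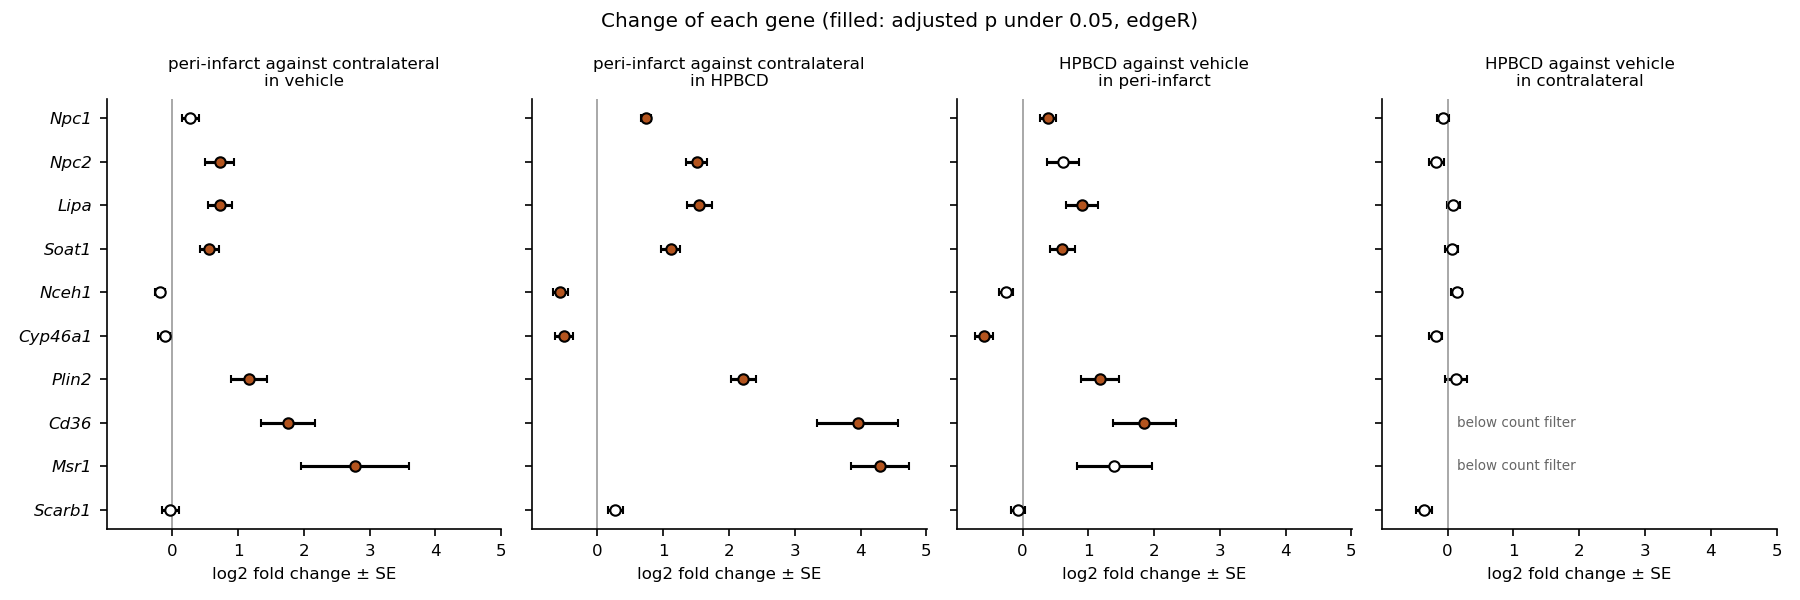
Log2 fold change (horizontal axes, bars are SE) of the 10 genes in 4 comparisons of 5 against 5 libraries; filled points passed an adjusted p of 0.05 in edgeR. Cd36 and Msr1 had the largest regional changes (1.76 and 2.78 in vehicle, 3.95 and 4.30 in HPBCD mice), and no point is filled for contralateral tissue.

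Among the lysosomal genes, Npc1 (ENSMUSG00000024413, chromosome 18, 12189692 to 12236400, minus strand, GRCm38) encodes the membrane protein that moves cholesterol out of the lysosome. In vehicle mice it stood at 84.3, 61.8, 72.1, 62.0 and 75.5 CPM in contralateral replicates 1 to 5 and at 79.0, 67.9, 99.3, 81.3 and 106 CPM in the peri-infarct replicates of the same animals. It was higher beside the infarct in 4 of 5 animals, but the regions overlapped and the test was not passed (log2 fold change of 0.27, SE 0.13, adjusted p = 0.15). In HPBCD mice the contralateral values were 64.0, 71.1, 73.3, 68.2 and 65.6 CPM and the peri-infarct values 112, 100.4, 114, 126 and 118 CPM. Here all 5 animals were higher by at least 29.3 CPM, with no overlap (log2 fold change of 0.73, SE 0.08, adjusted p = 7.28e-06). Between treatments in peri-infarct tissue, 4 of the 5 HPBCD libraries exceeded every vehicle library (log2 fold change of 0.39, SE 0.12, adjusted p = 0.0409). Only 3 of 10 fits that left out 1 library kept this call, and it was lost without the filter on low counts. The exons of Npc1 overlap those of Rmc1 and Gm15956 on the opposite strand over 601 bp, and the strand setting of the counting is not given in the sources used here, so its counts are uncertain.

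Npc2 (ENSMUSG00000021242, chromosome 12, 84754562 to 84773152, minus strand), the soluble lysosomal protein that hands cholesterol to Npc1, varied more between libraries. Its contralateral values in vehicle mice were 64.6, 61.5, 64.8, 42.1 and 58.1 CPM, and its peri-infarct values were 77.5, 60.6, 152, 108 and 85.4 CPM. Replicate 2 did not rise, the other 4 did, and the group difference passed the test (log2 fold change of 0.72, SE 0.22, adjusted p = 0.0366), though not with the animal as replicate block (adjusted p = 0.0525). In HPBCD mice Npc2 was at 53.0, 45.9, 53.5, 48.5 and 58.9 CPM in contralateral and 138, 96.8, 152, 207 and 148 CPM in peri-infarct libraries, so that every peri-infarct library was above every contralateral one (log2 fold change of 1.51, SE 0.16, adjusted p = 6.19e-06). The HPBCD and vehicle peri-infarct groups overlapped, since vehicle replicate 3 was as high as HPBCD replicate 3 and vehicle replicate 4 was above HPBCD replicate 2. The difference did not pass (log2 fold change of 0.61, SE 0.24, adjusted p = 0.089, 95% interval 0.08 to 1.14).

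Lipa (ENSMUSG00000024781, chromosome 19, 34492318 to 34527474, minus strand) encodes the acid lipase that cleaves cholesteryl esters in the lysosome. It was even across contralateral tissue, at 15.9, 15.8, 14.1, 15.4 and 15.7 CPM in vehicle and 14.4, 15.4, 17.2, 19.8 and 15.5 CPM in HPBCD mice. Vehicle peri-infarct libraries had 21.2, 16.1, 35.6, 30.9 and 24.5 CPM, all above the contralateral group, the closest being replicate 2 (log2 fold change of 0.72, SE 0.18, adjusted p = 0.0166). HPBCD peri-infarct libraries had 39.0, 34.1, 64.7, 64.9 and 38.9 CPM. Replicates 3 and 4 were far above the other 3, and all 5 exceeded each contralateral library (log2 fold change of 1.55, SE 0.18, adjusted p = 1.79e-05). Against vehicle the rise in peri-infarct tissue was 1.87-fold, with 4 of 5 HPBCD libraries above every vehicle library (log2 fold change of 0.91, SE 0.24, adjusted p = 0.0269). This call was kept in 5 of 10 fits that left out 1 library.

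Esterification is the role of Soat1 (ENSMUSG00000026600, chromosome 1, 156424525 to 156474331, minus strand). In vehicle mice it measured 29.7, 26.9, 24.1, 26.3 and 28.9 CPM in contralateral and 35.8, 27.9, 54.2, 45.7 and 39.2 CPM in peri-infarct tissue. All 5 animals were higher beside the infarct, replicate 2 by only 0.977 CPM (log2 fold change of 0.56, SE 0.15, adjusted p = 0.0227). HPBCD mice had 22.8, 31.0, 28.9, 31.1 and 29.1 CPM in contralateral and 50.9, 49.3, 74.2, 81.0 and 54.0 CPM in peri-infarct tissue, with no overlap (log2 fold change of 1.11, SE 0.15, adjusted p = 3.88e-05). As for Lipa, HPBCD peri-infarct replicates 3 and 4 were the highest. Vehicle peri-infarct replicate 3 lay within the HPBCD range, and the treatment groups differed (log2 fold change of 0.60, SE 0.19, adjusted p = 0.0435). That difference kept its call in only 3 of 10 fits that left out 1 library (adjusted p up to 0.106).

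Nceh1 (ENSMUSG00000027698, chromosome 3, 27182965 to 27284608, plus strand), the neutral cholesterol ester hydrolase, went the other way. Its vehicle contralateral values were 150.1, 148, 147, 182 and 167 CPM and its vehicle peri-infarct values 146, 142, 125, 146 and 146 CPM. Each animal was lower beside the infarct and the groups did not overlap, by a margin of less than 1 CPM, yet the test was not passed (log2 fold change of -0.18, SE 0.08, adjusted p = 0.11). In HPBCD mice it went from 165, 190.0, 169, 192 and 162 CPM in contralateral to 126, 144, 114, 96.9 and 112 CPM in peri-infarct tissue, with differences within the 5 animals of -95.1 to -38.7 CPM (log2 fold change of -0.56, SE 0.12, adjusted p = 0.00128). The peri-infarct groups of both treatments overlapped through HPBCD replicates 1 and 2 (log2 fold change of -0.26, SE 0.11, adjusted p = 0.103, 95% interval -0.49 to -0.02).

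Plin2 (ENSMUSG00000028494, chromosome 4, 86648386 to 86670060, minus strand) coats lipid droplets and is widely used as their marker. In contralateral tissue it was low, 5.22, 5.45, 5.39, 3.42 and 4.53 CPM in vehicle and 5.39, 3.98, 5.79, 5.63 and 5.64 CPM in HPBCD mice. Beside the infarct it rose to 8.51, 5.84, 16.9, 14.8 and 8.23 CPM in vehicle mice, with replicates 3 and 4 well above the others (log2 fold change of 1.17, SE 0.28, adjusted p = 0.0141). HPBCD peri-infarct libraries held 22.1, 15.5, 29.2, 34.1 and 22.3 CPM, a 4.65-fold regional difference (log2 fold change of 2.22, SE 0.19, adjusted p = 1.94e-06). The lowest of them, replicate 2, was below vehicle replicate 3, and the other 4 were above all vehicle libraries (log2 fold change of 1.17, SE 0.29, adjusted p = 0.0223). Only 63 to 108 counts per library lie behind the contralateral values.

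The neuronal enzyme Cyp46a1 (ENSMUSG00000021259, chromosome 12, 108334381 to 108362234, plus strand) stood lower in a single group. It read 286, 237, 219, 231 and 203 CPM in vehicle contralateral, 203, 246, 229, 218 and 199 CPM in vehicle peri-infarct and 229, 219, 184, 188 and 224 CPM in HPBCD contralateral libraries. These 3 groups overlapped one another, and the regional difference did not pass in vehicle mice (log2 fold change of -0.11, SE 0.10, adjusted p = 0.444). HPBCD peri-infarct libraries read 193, 121, 149.7, 114 and 156 CPM. Replicate 1 was within the HPBCD contralateral range, and the regional difference passed (log2 fold change of -0.51, SE 0.13, adjusted p = 0.00619), except when libraries were scaled by total count alone (log2 fold change of -0.34, adjusted p = 0.0638). That scaling raised the median of all genes to 0.19, and relative to the median the change was -0.54 under both scalings. Against vehicle, all 5 HPBCD peri-infarct libraries were below the lowest vehicle library (log2 fold change of -0.59, SE 0.14, adjusted p = 0.0193).

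Cd36 (ENSMUSG00000002944, chromosome 5, 17781690 to 17888801, minus strand) takes up oxidized lipoproteins and long-chain fatty acids. Its contralateral counts were 9, 12, 9, 16 and 7 in vehicle and 6, 6, 22, 1 and 3 in HPBCD replicates 1 to 5, or 0.495, 0.654, 0.533, 0.870 and 0.344 CPM and 0.299, 0.302, 1.52, 0.0761 and 0.169 CPM. HPBCD contralateral replicate 3 held more than the other 4 together. Peri-infarct levels were 1.94, 1.95, 2.99, 2.5 and 0.574 CPM in vehicle mice, higher than contralateral in each animal (log2 fold change of 1.76, SE 0.41, adjusted p = 0.0127). In HPBCD mice they were 3.49, 3.95, 16.0, 7.18 and 5.31 CPM, and again replicate 3 was far above the rest. The regional difference in HPBCD mice was 15.5-fold (log2 fold change of 3.95, SE 0.62, adjusted p = 0.000158), and the difference from vehicle 3.6-fold with no overlap (log2 fold change of 1.85, SE 0.48, adjusted p = 0.0251). Replicate 3 of both regions in HPBCD mice also had the highest choroid plexus marker sums of the series. With both left out, a choice made after the marker sums were seen, the regional log2 fold change was 4.43 (adjusted p = 1.61e-05), with only the contralateral one left out it was 4.96 (adjusted p = 3.34e-05; range over the libraries left out 3.42 to 4.96), and without the peri-infarct one the treatment difference was 1.32 and no longer passed (adjusted p = 0.0625). The other 4 HPBCD peri-infarct libraries had 18.5 to 185 CPM of choroid plexus markers and 3.49 to 7.18 CPM of Cd36, and the vehicle ones 4.26 to 63.9 CPM and 0.574 to 2.99 CPM. The part of these markers in the Cd36 difference was not tested.

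Msr1 (ENSMUSG00000025044, chromosome 8, 39581685 to 39642673, minus strand), a receptor of macrophages for modified lipoproteins, was close to the detection floor in contralateral tissue. Its counts there were 0, 16, 4, 1 and 10 in vehicle and 2, 6, 8, 4 and 6 in HPBCD mice. Vehicle peri-infarct libraries had 26, 7, 92, 79 and 24 counts, or 1.33, 0.359, 5.20, 3.72 and 1.15 CPM. Replicate 2 was lower beside the infarct than opposite it, the other 4 animals were higher, and the group difference passed (log2 fold change of 2.78, SE 0.82, adjusted p = 0.0333), though not with the animal as replicate block (adjusted p = 0.0945). Without 1 library the log2 fold change ran from 2.28 to 3.51, the highest without vehicle contralateral replicate 2, and 4 of these 10 fits kept the call. HPBCD peri-infarct libraries had 99, 74, 163, 203 and 85 counts, or 4.16, 3.75, 7.90, 11.2 and 4.07 CPM, all far above the contralateral group (log2 fold change of 4.30, SE 0.44, adjusted p = 5.30e-06). Because vehicle replicate 3 lay inside the HPBCD range, the treatment groups overlapped and did not pass (log2 fold change of 1.40, SE 0.57, adjusted p = 0.0956, 95% interval 0.15 to 2.64).

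Scarb1 (ENSMUSG00000037936, chromosome 5, 125277087 to 125341094, minus strand), which exchanges cholesteryl esters with high-density lipoprotein, moved least between regions and between the peri-infarct groups. It was at 21.6, 15.5, 21.3, 14.7 and 17.3 CPM in vehicle contralateral and 18.0, 18.1, 21.3, 15.6 and 16.2 CPM in vehicle peri-infarct libraries, 3 of 5 animals being higher beside the infarct (log2 fold change of -0.03, SE 0.13, adjusted p = 0.906). HPBCD contralateral libraries had 14.3, 14.7, 11.7, 15.1 and 15.1 CPM, and peri-infarct ones 15.3, 19.9, 16.7, 16.9 and 16.7 CPM. All 5 HPBCD animals were higher beside the infarct and the regions did not overlap, but the difference narrowly missed the threshold (log2 fold change of 0.27, SE 0.11, adjusted p = 0.0506). It passed with total count scaling (log2 fold change of 0.43, adjusted p = 0.00371) and with upper quartile factors (0.29, adjusted p = 0.0350), and relative to the median of all genes it was 0.24 under each of these scalings. The separation in HPBCD mice went with a lower contralateral group. That group was below vehicle contralateral in the mean, with an unadjusted p of 0.0146 and an adjusted p of 0.555 (log2 fold change of -0.36). Peri-infarct levels of both treatments overlapped widely (log2 fold change of -0.07, SE 0.11, adjusted p = 0.678, 95% interval -0.31 to 0.17).

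Ratios of paired functions within a library do not depend on how libraries are scaled to each other. Soat1, which esterifies, was set against Nceh1, which hydrolyzes the stored esters outside the lysosome. The ratio leaves out Lipa, which cleaves esters in the lysosome. Lipa rose by more than Soat1 between regions in HPBCD mice (log2 fold changes of 1.55 and 1.11) and between peri-infarct groups (0.91 and 0.60). Neuronal markers also fell and microglial markers rose beside the infarct, and their part in this ratio was not tested. Per library, Soat1 had 0.145 to 0.198 counts for each Nceh1 count in vehicle contralateral and 0.138 to 0.180 in HPBCD contralateral tissue, 0.196 to 0.433 in vehicle peri-infarct and 0.341 to 0.836 in HPBCD peri-infarct tissue. The ratio was 3.18-fold higher beside the infarct in HPBCD mice (difference of mean log2 ratio 1.67, exact two-sided permutation test over 5 and 5 libraries taken as unpaired, p = 0.00794, the smallest this unpaired test allows, adjusted p = 0.0238 over 12 tests) and 1.64-fold higher in vehicle mice (difference 0.71, exact p = 0.0159, adjusted p = 0.0381). Between peri-infarct groups it was 1.84-fold higher in libraries labelled HPBCD (difference 0.88, exact p = 0.0238, adjusted p = 0.0408). The vehicle regional and the treatment difference lost their call in 8 and 9 of 10 fits that left out 1 library, while the HPBCD regional difference kept it in all 10. Both regional tests ignored the pairing of regions by animal. With the pairs kept, an exact sign-flip test gave p = 0.0625 in vehicle and in HPBCD mice, the smallest that 5 pairs allow.

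Npc1 and Npc2 act in sequence, and their count ratio fell beside the infarct in HPBCD mice, from 1.11 to 1.55 in contralateral to 0.608 to 1.04 in peri-infarct libraries, with no overlap (difference of mean log2 ratio -0.74, exact p = 0.00794, adjusted p = 0.0238). Npc2 thus rose by more than Npc1 there. In vehicle mice the ratio was 1.01 to 1.47 in contralateral and 0.655 to 1.25 in peri-infarct libraries (difference -0.40, exact p = 0.0873, adjusted p = 0.131). For the class B receptors, the Cd36 to Scarb1 ratio was 0.0213 to 0.0610 in vehicle contralateral, 0.00756 to 0.133 in HPBCD contralateral, 0.0369 to 0.161 in vehicle peri-infarct and 0.200 to 0.962 in HPBCD peri-infarct libraries. It was higher in HPBCD than in vehicle peri-infarct libraries without overlap (difference 1.84, exact p = 0.00794, adjusted p = 0.0238), and higher beside the infarct in HPBCD (difference 3.96, exact p = 0.00794, adjusted p = 0.0238) and vehicle mice (difference 1.62, exact p = 0.0238, adjusted p = 0.0408). The last call was lost in 9 of the 10 fits that left out 1 library. The regional tests of these ratios ignored the pairing too, and the exact sign-flip test over 5 pairs gave p = 0.0625 for each regional call. None of the 3 ratios differed between treatments in contralateral tissue (adjusted p = 0.450 to 0.540).

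**Figure D3:**
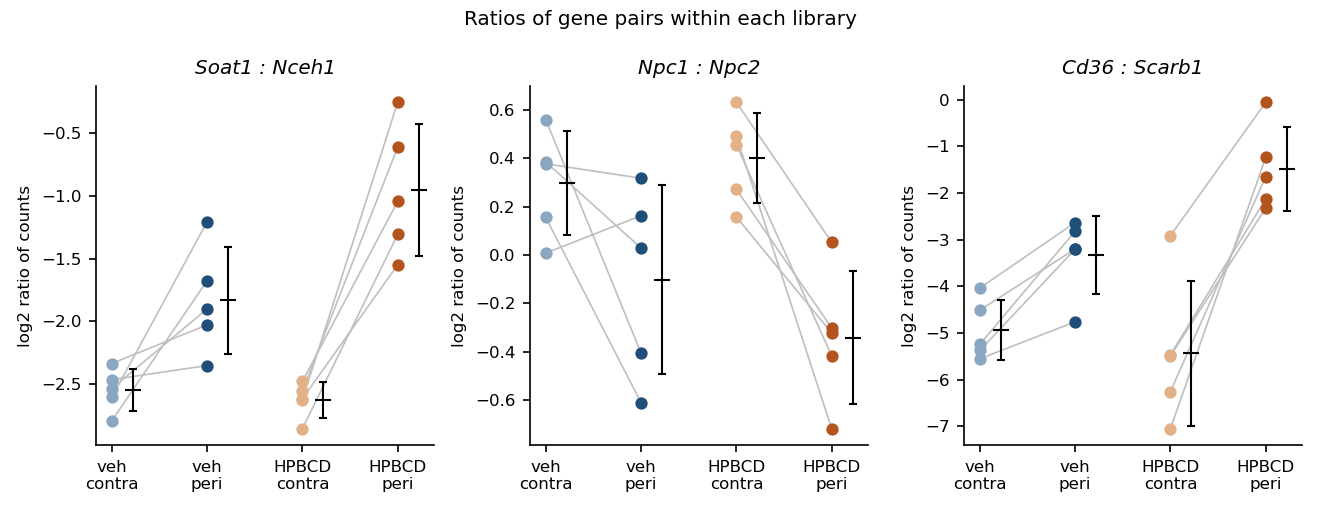
Log2 ratio of counts of 2 genes within each library (vertical axes) for Soat1 to Nceh1, Npc1 to Npc2 and Cd36 to Scarb1 in the 4 groups; grey lines join both regions of an animal and black bars give mean and SD. In HPBCD mice both regions separate in all 3 panels.

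Other genes of these pathways were taken from 4 lists by role. Of 17 genes of sterol transport between membranes, 4 rose and 1 fell beside the infarct in vehicle mice, 6 rose and 4 fell in HPBCD mice, and 4 were higher and 2 lower in HPBCD than in vehicle peri-infarct libraries (median log2 fold changes of 0.00, 0.06 and 0.05, against 0.01, 0.03 and 0.01 over all genes, of which 10.5%, 30.3% and 12.4% were called higher and 9.70%, 24.3% and 9.00% lower). Lamp2, a lysosomal membrane protein, went from 78.4 ± 1.25 CPM in vehicle contralateral to 114 ± 28.0 CPM in vehicle peri-infarct (log2 fold change of 0.53, adjusted p = 0.0257) and 204 ± 46.2 CPM in HPBCD peri-infarct tissue (0.83 against vehicle, adjusted p = 0.0188; SD, n = 5). Tmem97, a sterol-binding membrane protein, fell beside the infarct in vehicle mice (log2 fold change of -0.58, adjusted p = 0.0145), and Gramd1c, which carries cholesterol from the plasma membrane to the endoplasmic reticulum, was higher with the label HPBCD (0.88, adjusted p = 0.0218).

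Of 19 lipid droplet genes other than Plin2, 14 were tested between regions. In vehicle mice 1 rose and 1 fell, beside 10.5% and 9.70% of all genes (median log2 fold change of 0.08). In HPBCD mice 8 rose and 3 fell, beside 30.3% and 24.3% (median 0.56), and of 15 tested between treatments in peri-infarct tissue 3 were higher and 2 lower, beside 12.4% and 9.00% (median 0.42). Plin3, another coat protein, rose in both (log2 fold change of 0.68, adjusted p = 0.0428, beside the infarct in vehicle mice; 0.74, adjusted p = 0.0260, with the label HPBCD). Plin4 was higher with HPBCD (0.95, adjusted p = 0.0298), and Hilpda, an inhibitor of the droplet lipase, fell beside the infarct in vehicle mice (-0.74, adjusted p = 0.0453). Among 8 enzymes of oxysterols and bile acids, 1 rose and 1 fell of 6 tested in vehicle, 4 rose and 3 fell of 7 in HPBCD mice, and 3 were higher and 0 lower of 7 between treatments (medians of -0.21, 0.40 and 0.74), beside the same shares of all genes. Cyp7b1, an oxysterol 7-alpha-hydroxylase, rose in vehicle mice (0.42, adjusted p = 0.0268), as Cyp39a1, which acts on the product of Cyp46a1, fell (-1.32, adjusted p = 0.0148). With the label HPBCD, Cyp39a1 was higher in peri-infarct tissue (0.89, adjusted p = 0.0140), and so was the sterol 27-hydroxylase Cyp27a1 (0.97, adjusted p = 0.0128).

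The list of other scavenger and lipid uptake receptors held 21 genes. Beside the infarct 5 of 17 tested rose and 2 fell in vehicle mice (median log2 fold change of 0.24; 10.5% and 9.70% of all genes), and 15 of 19 rose and 3 fell in HPBCD mice (median 1.67; 30.3% and 24.3% of all genes). Against vehicle, 8 of 20 were higher and 2 lower in peri-infarct tissue (median 0.95; 12.4% and 9.00% of all genes). The rankings that follow cover only called genes of this list with a mean of at least 1 CPM. Cxcl16, a membrane-bound chemokine that binds oxidized lipoprotein, and Cd68, a protein of macrophage lysosomes, had the largest changes of these in vehicle mice (log2 fold changes of 2.55 and 2.27, adjusted p = 0.00307 and 0.00291). Cd5l, secreted by macrophages, differed most between treatments beside the infarct, with 23.3 ± 23.7 CPM under HPBCD and 1.32 ± 1.41 CPM under vehicle (4.14, adjusted p = 0.0148; SD, n = 5), a mean with a spread as large as itself. Fabp4, a lipid carrier of macrophages and adipocytes, went from 0.474 ± 0.498 to 3.32 ± 2.73 CPM (2.79, adjusted p = 0.0281). In contralateral tissue 0 genes of the 4 lists were called between treatments by edgeR, with 1 sterol transport and 4 lipid droplet genes at an unadjusted p under 0.05.

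Markers of several cell types moved with these changes, and in bulk tissue fewer cells of a type and less RNA per cell cannot be told apart. The counts of called markers stand beside these shares of all genes. Between regions 10.5% rose and 9.70% fell in vehicle mice, and 30.3% and 24.3% in HPBCD mice. Between peri-infarct groups 12.4% were higher and 9.00% lower. All 8 microglial markers rose beside the infarct in both treatments, from 333 to 403 CPM in sum to 608 to 1715 CPM in vehicle mice and from 326 to 386 CPM to 992 to 2053 CPM in HPBCD mice. Between treatments in peri-infarct tissue 0 of these 8 were called with edgeR (2 at an unadjusted p under 0.05, median log2 fold change of 0.34). Of 7 markers of border and infiltrating macrophages (Cd163 is also on the receptor list), 5 were higher there with the label HPBCD, with sums of 21.4 to 48.1 CPM against 6.65 to 17.3 CPM, and so were all 6 fibroblast and meningeal markers, with 236 to 729 CPM against 56.4 to 221 CPM. Neuronal markers fell in both treatments (4 of 8 in vehicle and 8 of 8 in HPBCD mice), and 6 of 8 were lower in HPBCD than in vehicle peri-infarct libraries, with 3483 to 6803 CPM against 6718 to 8999 CPM. The direction of these treatment differences rests on the same doubtful labels. For peri-infarct tissue the paper describes neuronal genes such as Nefl and Syn1 as higher with HPBCD. All 6 oligodendrocyte markers rose beside the infarct in HPBCD mice and 0 in vehicle mice with edgeR (0 at an unadjusted p under 0.05), where vehicle contralateral sums ranged from 4470 to 11648 CPM. All 6 striatal markers rose beside the infarct in HPBCD mice, with sums of 367 to 1150 CPM against 139 to 170 CPM, and in vehicle mice the sums were 231 to 1234 CPM against 123 to 192 CPM in 4 contralateral libraries and 2060 CPM in replicate 1, where edgeR called 0 of the 6 (0 at an unadjusted p under 0.05). The regions dissected from HPBCD mice thus differed in striatal RNA. Of 3 blood cell markers tested between peri-infarct groups 3 were higher with the label HPBCD, with sums over the 4 listed of 9.09 to 79.0 CPM against 5.35 to 10.7 CPM. The 4 adipocyte markers summed to at most 0.508 CPM in any library, Adipoq and Cidec being at 0 in all HPBCD contralateral libraries. The part of these markers in the results on the 10 genes was not tested.

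**Figure D4:**
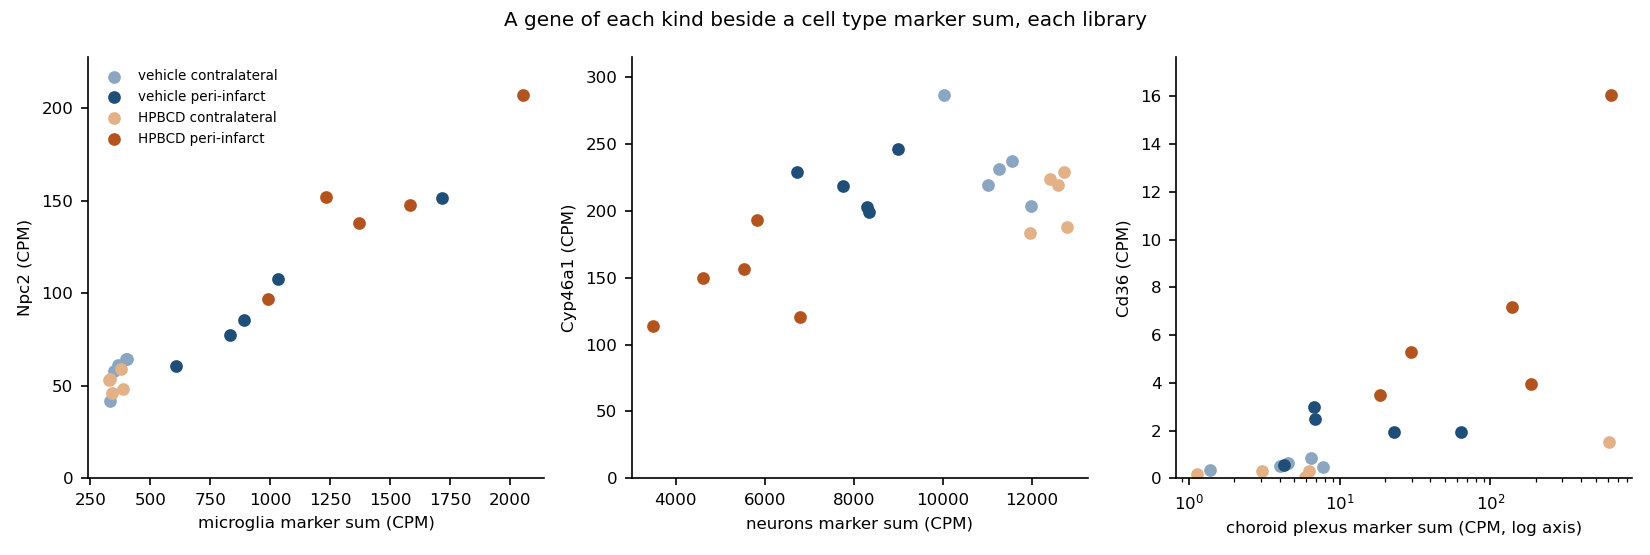
Npc2, Cyp46a1 and Cd36 (vertical axes, CPM from 0) in each of the 20 libraries beside the summed CPM of microglial, neuronal and choroid plexus markers (horizontal axes, the last one logarithmic); colours give the 4 groups. Npc2 was highest where the microglial sum was highest (207 CPM at 2053 CPM), and the library with 16.0 CPM of Cd36 had the highest choroid plexus sum (633 CPM).

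How the genes varied within groups was described by the correlation of log2 CPM around the 4 group means over 20 libraries, which come from 10 animals. It is given with no test. Lipa and Soat1 (r = 0.94) and Npc2 and Plin2 (0.94) had the highest values, followed by Lipa and Plin2 (0.84). Npc2 and Nceh1 were opposed (-0.79), and so were Plin2 and Nceh1 (-0.68). Cyp46a1 had values between -0.40 and 0.06 with the other 9 genes, Scarb1 between -0.26 and 0.21, and Cd36 none above 0.35. Npc2, Lipa, Soat1, Plin2 and Msr1 were highest, within both peri-infarct groups, in vehicle peri-infarct replicate 3 and HPBCD peri-infarct replicate 4.

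**Figure D5:**
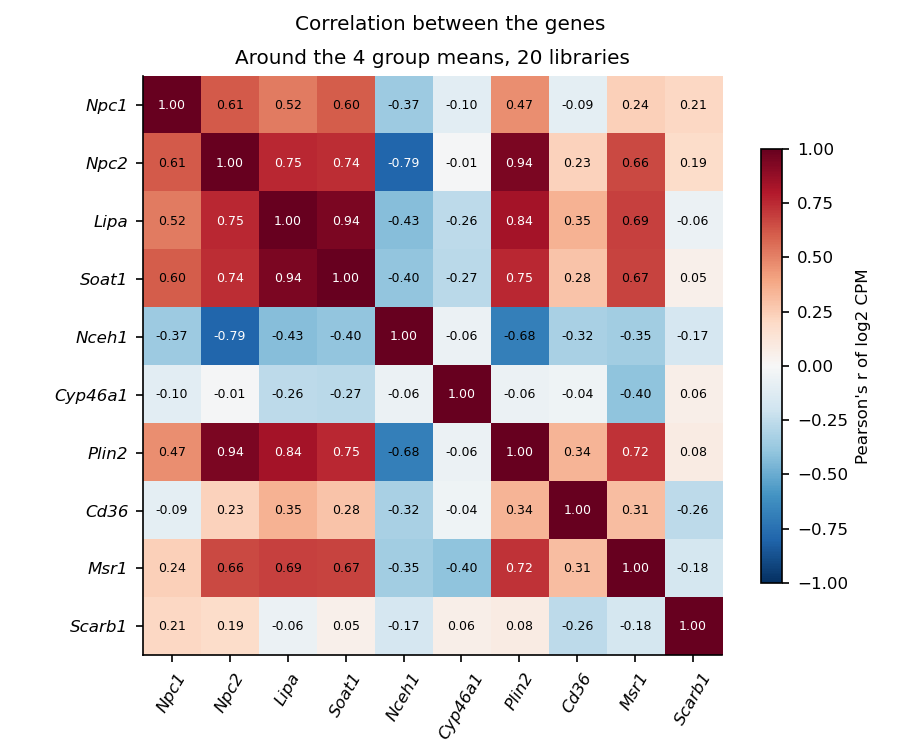
Pearson's r of log2 CPM between the 10 genes around the 4 group means over 20 libraries (colour scale from -1 to 1, value in each cell). Npc2, Lipa, Soat1, Plin2 and Msr1 form a block of positive values from 0.66 to 0.94, and Nceh1 is negative to all of them.

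Over the 20 libraries, group differences included, each gene was also set against the 16758 genes that passed the filter. These values of r include the differences between groups and are a description, with no test. The most alike of Npc2 were Ctsa (r = 0.99, and 0.96 around the group means), a lysosomal carboxypeptidase, H2-D1, a class I histocompatibility molecule, and Tcirg1, a subunit of the lysosomal proton pump. Those of Lipa were Cat (0.99 and 0.94), Soat1 and Il6st, and those of Soat1 were Lipa, Ptbp3 and Il6st. Npc1 was most like Ankrd13a, Nde1 and Arhgef10 (0.98 for the first), and Plin2 most like Parp3 (0.99), Arpc1b and Renbp. Nceh1 followed Tmem30a, Map7d2 and Cadps (0.99 for the first), and Cyp46a1 followed Slc4a3 (0.94), Cacng3, an auxiliary protein of neuronal AMPA receptors, and Cox10. Msr1 was most like B4galt1 (0.97), Fgl2 and Hfe, and Cd36 was like Nt5dc2 (0.96) and Hey2 (0.95). Scarb1 had no close companion, its best being Traip (0.81), Myh6 and Gm7361.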

How the data were processed

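Per the study's methods, RNA with an integrity number above 8 was made into stranded polyadenylated libraries; per the submitters' processing notes, reads went through bcl2fastq 2.19, Trimmomatic 0.32, STAR 2.5.2b and HTSeq. The authors deposited raw counts per Ensembl gene for each of 20 libraries. The 5 summary lines were left out (no-feature 4.39 to 9.50% and ambiguous 3.94 to 8.03% of reads, both highest in HPBCD contralateral replicate 4). Coordinates came from GRCm38. Counts were tested with edgeR 4.0.16 (quasi-likelihood, TMM scaling, filterByExpr, R 4.3.3) over the 10 libraries of each comparison, or all 20 for the interaction, with Benjamini-Hochberg adjustment over all genes tested and a threshold of 0.05. CPM are TMM-scaled, and log2 CPM add a prior count of 2. Count ratios add 0.5 to each count and were tested by exact permutation (scipy 1.17.1). Alternatives used DESeq2 1.42.0, limma 3.58.1 voom, other scalings, no filter, 1 fit of all groups, a replicate block and leaving out each library. The fitting code was tested on simulated data.

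The deposited names give both regions of an animal the same identifier, which pairs them. Their deviations from the group means correlated at 0.088 on average over 10 pairs (4 above 0.1). For 3 of these 10 pairs the own number was the best match. Libraries that share only a number across treatments correlated at 0.115 in peri-infarct and -0.015 in contralateral tissue (5 pairs each). These values do not establish the pairing, which rests on the names. Between treatments the number is only a name. The genes and lists were chosen with earlier results of these data known. Besides the 10 genes, the text names from each pathway list the 2 called genes with the largest absolute log2 fold change between regions in vehicle mice and the 2 between peri-infarct groups (mean of at least 1 CPM), and for likeness the 3 genes with the highest r, of which 1 is not reported here. The 95% intervals of log2 fold changes come from the edgeR fits and include the spread between libraries, whereas floors cover counting error only.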

Additional observations from a re-analysis of the deposited data

Results flagged for a closer look

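In 7 of 52 groups of 5 values checked (the 10 genes and the 3 ratios in 4 groups), 1 library stood apart, its gap to the nearest value exceeding 0.71 of the group's range; chance gives about 1 in 20. Vehicle contralateral replicate 3 had 14.1 CPM of Lipa against 15.4 to 15.9 in the other 4. HPBCD contralateral replicate 1 had 22.8 CPM of Soat1 (others 28.9 to 31.1). Vehicle peri-infarct replicate 3 had 125 CPM of Nceh1 (others 142 to 146). HPBCD contralateral replicate 2 had 3.98 CPM of Plin2 (others 5.39 to 5.79). HPBCD contralateral replicate 3 appeared 3 times, with 1.52 CPM of Cd36 (others 0.0761 to 0.303), 11.7 CPM of Scarb1 (others 14.3 to 15.1) and a Cd36 to Scarb1 ratio of 0.133 (others 0.00756 to 0.0226). That library also had 614 CPM of choroid plexus markers, whose part in these values was not tested.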

How the results depend on the processing

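For single genes, 510 of the values obtained by leaving out 1 library kept direction and call, 39 lost the call, 25 gained it and 6 reversed; under the other alternatives 361 kept both, 4 lost the call, 28 gained it and 1 reversed. All reversals were of genes without a call: Scarb1 between regions in vehicle mice (0.0533 with total count scaling, -0.0957 to 0.0571 without 1 library), Scarb1 between peri-infarct groups (-0.134 to 0.00816 without 1 library) and Npc1 in contralateral tissue (-0.11 to 0.00484 without 1 library). Without 1 library, the number of the 10 genes called ran from 3 to 6 for the regions in vehicle mice, 9 to 10 in HPBCD mice, 0 to 8 between peri-infarct groups, 0 to 0 in contralateral tissue and 0 to 6 for the interaction. The count between peri-infarct groups was 6, and with voom it was 9, with the replicate block, where the number is only a name, 8, and with all 4 groups in 1 fit 8. With DESeq2 it was 7 (Msr1 gained), and without the filter on low counts 5 (Npc1 lost). For the interaction the count was 5 with DESeq2, 5 with voom, 3 with total count scaling, 4 with the replicate block and 1 (Cd36, 2.68, adjusted p = 0.0378) without the libraries highest in choroid plexus markers, an alternative chosen after the marker sums were seen. With the replicate block the vehicle regional count was 4 instead of 6, and the HPBCD count stayed 9. For ratios, the Soat1 to Nceh1 difference ran from 0.556 to 0.842 in vehicle mice and from 0.703 to 1.03 between peri-infarct groups without 1 library, and that of Cd36 to Scarb1 from 1.45 to 1.98 in vehicle mice. With the animals paired as replicate block (exact sign-flip test), differences of 0.712, 1.67, -0.743, 1.62 and 3.96 no longer passed, as 5 pairs cannot give a p below 0.0625. Other causes were not tested. Total count scaling moved the median of all genes to 0.10 (vehicle) and 0.19 (HPBCD) between regions and to 0.10 for the interaction. Contralateral Cd36 and Msr1, at 0 to 22 counts, limit the precision of their folds.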
